A study of Mus musculus with 12 samples.

Results

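The transcripts described here are those of 37 mouse genes that build, desaturate, elongate, activate and store fatty acids, make cholesterol, or control both pathways through sterol sensing. They were chosen by name: a gene counted as a member if the array's own gene name was on the list, which gave 70 probes of the 41174 on the array and 37 of 22410 named genes. The RNA came from lung tumours that carried the oncogenic K-ras allele LSL-G12D, with the DNA methyltransferase gene Dnmt3a either deleted (KO) or intact (WT). Each of the 12 arrays was hybridised with KO tumour RNA in one dye and WT tumour RNA in the other, and the KO RNA carried Cy5 on 6 arrays and Cy3 on the other 6.

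In KO tumours both copies of a conditional Dnmt3a allele had been recombined, whereas WT tumours had an unaltered Dnmt3a. Both groups had received adenoviral Cre recombinase through the airway at an age of 6 to 12 weeks, which also switched on the K-ras allele. Recombination therefore depended on which lung cells the virus reached, and the tumour pieces also hold cells that it did not reach. All mice were of the mixed strain C57/129. By the ages and sexes of the mice the arrays fell into 4 pairs, named A to D here; the labels give the ages without a unit. Pair A was KO males of age 47.7 against WT males of 42.6 on 4 arrays, and pair B was KO males of 27 against WT males of 41.3 on 4 arrays. Pair C was KO males of 27 against WT females of 47.6 on 2 arrays, both with KO in Cy5, and pair D was KO males of 29.1 against WT males of 37.3 on 2 arrays, both with KO in Cy3. The labels call the arrays biological replicates but do not say which arrays share an animal, so p-values measure the spread between these 12 arrays.

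Cells make fatty acids by turning citrate into acetyl-CoA and malonyl-CoA, which fatty acid synthase joins into palmitate. Elongases lengthen the chain, desaturases put double bonds in it, and acyl-CoA synthetases couple it to coenzyme A before it is stored, oxidised or built into membranes. Cholesterol is made from the same acetyl-CoA through isoprenoids and squalene. The SREBP transcription factors switch on both pathways when their escort Scap is released from the Insig proteins. In lung, alveolar type 2 cells use these pathways to make the phospholipid of surfactant, and mouse K-ras lung tumours are known to keep many features of those cells.

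Promoter windows from 250 bases before to 50 bases after the annotated start were read from RefSeq on build GRCm38.p6, and 27 of the 37 genes had at least 1 window. Scd1, Scd2, Fads1, Elovl3, Sqle, Fdps, Fdft1, Dgat1, Dgat2 and Lpl had none and were not searched. The windows were searched on both strands for the sterol regulatory element in the letters TCACNCCAC, where SREBP can bind. They were also searched for the CCAAT box in the letters CCAAT, and for the direct repeat of the liver X receptor, 2 copies of AGGTCA with 4 bases between them. No CCAAT match overlapped a match of the sterol regulatory element. The sterol letters stood in 2 of 40 member windows, those of Hmgcs1 and of 1 of the Acsl1 starts, which is 5% of windows, and in 1.24% of all 32851 promoter windows. CCAAT stood in 22 of the 40 member windows (55%) and in 37.4% of all windows. The direct repeat stood in 0 of 40 member windows and in 0.0152% of all windows. These are letter matches only, and whether they go with the ratios given below was not tested. The windows of Acaca, Elovl2, Elovl7, Fads2 and Scap, which were not called, also held no match to any of the motifs. Those of Acsl6 and Gpam, which were lower in KO tumours, held no sterol letters. The windows of both genes with the sterol letters are shown with those of Elovl6 and Acsl4, both higher in KO tumours, which held no match to any of the motifs; capitals mark the sterol letters (TCACCCCAC in Hmgcs1, and GTGGGGTGA in Acsl1, which is the match on the opposite strand) and CCAAT or its complement ATTGG. Their positions are chr13:119690101-119690400 on the plus strand for Hmgcs1, chr8:46490716-46491015 on the plus strand for Acsl1, chr3:129532136-129532435 on the plus strand for Elovl6 and chrX:142390486-142390785 on the minus strand for Acsl4.
Hmgcs1: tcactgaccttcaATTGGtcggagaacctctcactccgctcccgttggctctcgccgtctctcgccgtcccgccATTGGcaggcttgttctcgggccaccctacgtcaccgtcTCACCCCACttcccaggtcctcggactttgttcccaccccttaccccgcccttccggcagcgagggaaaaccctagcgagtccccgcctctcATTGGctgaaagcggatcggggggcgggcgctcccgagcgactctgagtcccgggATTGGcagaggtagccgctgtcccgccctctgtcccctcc
Acsl1: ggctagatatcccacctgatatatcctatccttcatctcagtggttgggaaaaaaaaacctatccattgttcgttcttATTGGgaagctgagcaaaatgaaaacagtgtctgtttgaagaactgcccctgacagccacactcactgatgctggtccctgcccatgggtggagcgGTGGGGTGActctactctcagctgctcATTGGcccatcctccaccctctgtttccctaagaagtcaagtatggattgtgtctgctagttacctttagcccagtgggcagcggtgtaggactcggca
Elovl6: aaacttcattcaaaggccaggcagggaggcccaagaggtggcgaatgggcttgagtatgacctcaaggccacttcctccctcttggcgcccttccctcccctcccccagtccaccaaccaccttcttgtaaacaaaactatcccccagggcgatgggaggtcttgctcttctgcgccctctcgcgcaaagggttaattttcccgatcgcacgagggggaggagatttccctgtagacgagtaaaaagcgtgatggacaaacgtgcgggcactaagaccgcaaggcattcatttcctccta
Acsl4: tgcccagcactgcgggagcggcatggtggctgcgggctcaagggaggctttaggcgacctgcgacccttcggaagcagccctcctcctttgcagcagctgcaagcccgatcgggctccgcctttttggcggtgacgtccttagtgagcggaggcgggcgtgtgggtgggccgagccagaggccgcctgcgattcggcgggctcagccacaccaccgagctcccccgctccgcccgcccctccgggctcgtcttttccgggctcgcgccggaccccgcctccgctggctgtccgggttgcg

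Of the probes, 68 of 70 were kept, meaning that they stood well above background for KO or WT RNA on at least 6 of the 12 arrays. The exceptions were the single Elovl3 probe, above background on 2 arrays for KO RNA and 3 for WT RNA, and an Insig2 probe on the strand opposite to the other Insig2 probes, above background on 1 array for KO RNA and 0 for WT RNA. Elovl3, an elongase of skin and brown fat, was therefore not tested, and the other 36 genes were, each through its brightest kept probe. Of the probes on the arrays, 59.0% to 89.6% per array stood above background, and 0 spots were saturated. Pair A was on slide 1 and pair B on slide 2, and the 4 arrays of pairs C and D shared slide 3. Those 4 arrays were the dimmest, at 59.0% to 72.2%. KO mice were older than WT mice in pair A and younger in pairs B, C and D. Differences between pairs given below therefore cannot be told apart from differences of slide or age. As a check of the labels, Dnmt3a RNA was lower in KO tumours on 12 of 12 arrays by its brightest probe, at a log2 ratio of -0.21 ± 0.046 (SE, adjusted p = 0.0213). The other Dnmt3a probes gave -0.25 and -0.55 (adjusted p = 0.0158 and 0.00265 over all probes), the last of them above background on 8 arrays for KO RNA and 12 for WT RNA. The sources used here do not say whether any of them lies in the deleted part.

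In KO tumours relative to WT tumours, Elovl6 and Acsl4 were higher, and Scd1, Acsl1, Acsl6 and Gpam were lower. These 6 of 36 genes (16.7%) passed an adjusted p of 0.05 in limma's test of the KO over WT ratio with Benjamini-Hochberg adjustment over all 20597 genes tested, of which 7.14% passed. By direction, 2 members rose (5.56%, against 3.37% of all genes) and 4 fell (11.1%, against 3.77% of all genes). The difference between these shares was not tested. All 6 are fatty acid genes, so 6 of the 24 tested fatty acid and lipid genes passed, and 0 of the 7 cholesterol enzymes and 0 of the 5 sterol control genes did. At an unadjusted p under 0.05 there were 11 members (30.6%), against 22.4% of all genes. No member kept the same sign on all 12 arrays, which 2.00% of all genes did. The median log2 ratio of the 36 members was 0.05, beside -0.01 for all genes. Scd1 was the only member whose fitted ratio exceeded 2-fold, at 2.10-fold lower. Pair ratios given below are fitted with the dye term, which in pairs C and D, each with 1 dye orientation, leans on pairs A and B. In RNA from whole tumours, fewer cells of a type and less RNA per cell cannot be told apart.

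**Figure D1:**
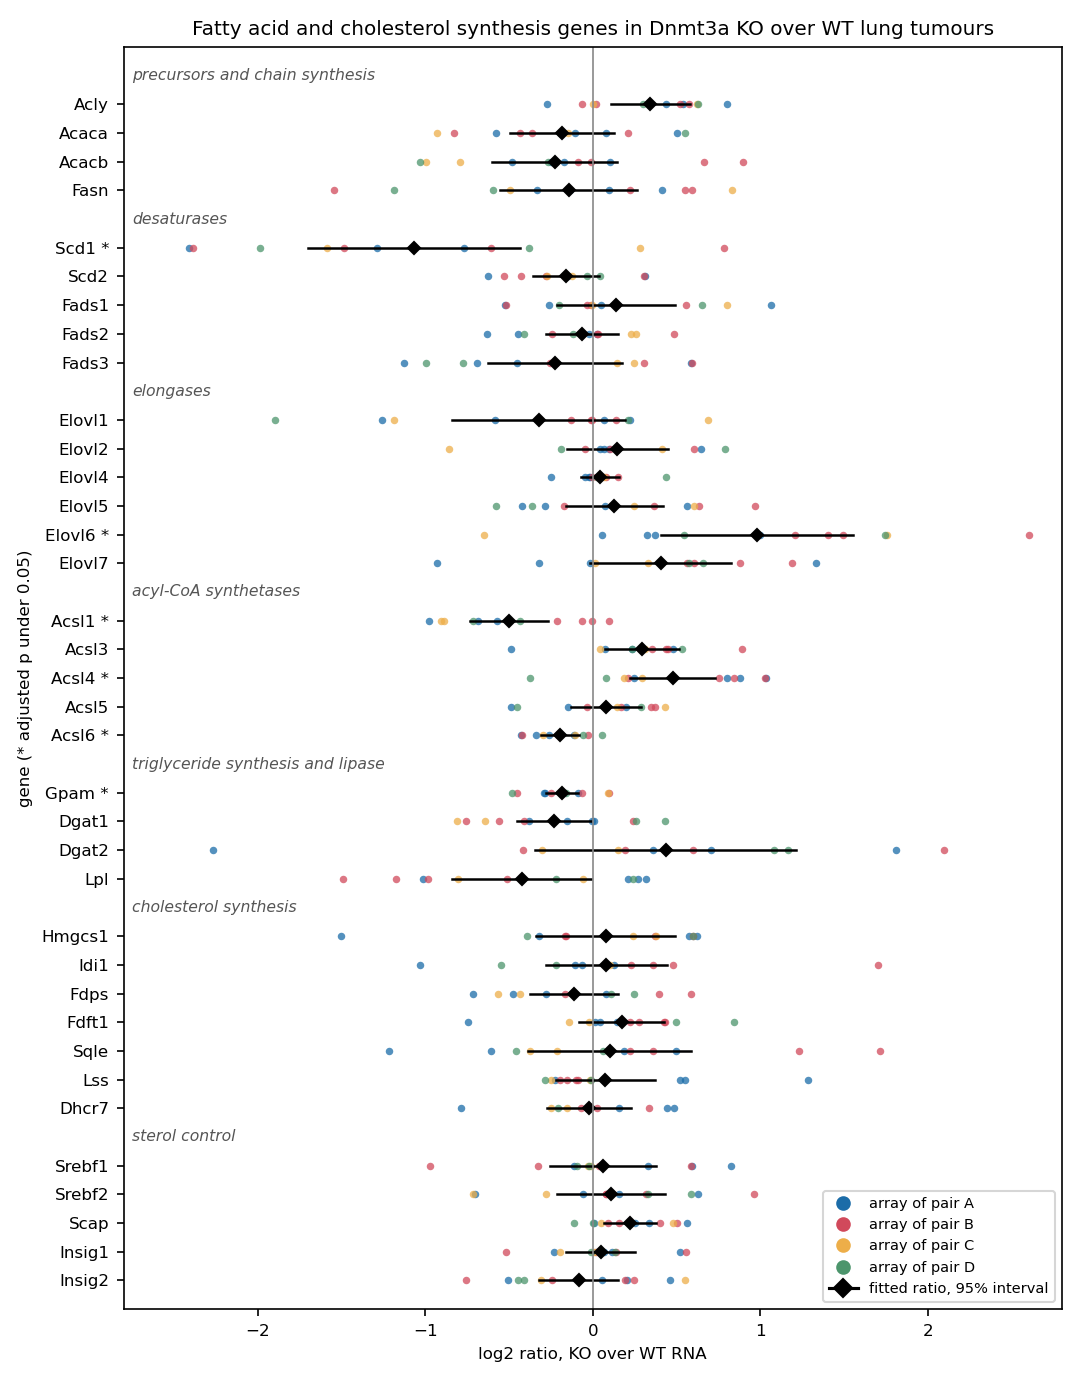
Log2 ratio of KO over WT RNA for the 36 tested genes (rows, by role), with 1 coloured point per array, a diamond for the ratio fitted over the 12 arrays and a bar for its 95% interval. Stars mark the 6 genes with an adjusted p under 0.05; the points of Scd1 reach from -2.41 to 0.78, and the intervals of 25 of the 36 genes include 0.

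The enzymes that supply and join the carbon units did not pass the test. Acly, which splits citrate into cytosolic acetyl-CoA, had ratios between -0.27 and 0.80 (median 0.48), above 0 on 10 of 12 arrays. Its fitted log2 ratio was 0.34 ± 0.11 (SE, adjusted p = 0.0814), and its 4 pair ratios lay between 0.26 and 0.50. Acly passed when the local background was used as deposited (0.38, adjusted p = 0.0396) and when array 4 (0.41, adjusted p = 0.0335) or array 5 was left out. A second, dimmer Acly probe, above background on 8 arrays for KO RNA and 8 for WT RNA, gave -0.002 ± 0.036 (adjusted p = 0.984 over all probes). The mean of both probes gave 0.17 (adjusted p = 0.116). The acetyl-CoA carboxylases Acaca and Acacb, which make malonyl-CoA in the cytosol and at mitochondria, had ratios of -0.19 ± 0.14 and -0.23 ± 0.17 (SE, adjusted p = 0.501 and 0.491). The other, dimmer Acaca probes gave 0.01, 0.03 and -0.09 (adjusted p = 0.905, 0.778 and 0.538 over all probes). A second, dimmer Acacb probe gave -0.05 (adjusted p = 0.288 over all probes). The pair ratio of Acacb was 0.36 in pair B and -0.20, -0.79 and -0.75 in pairs A, C and D. Fasn, the synthase itself, gave levels of 15.88 to 17.17 (median 16.55) in KO tumours and 15.90 to 17.54 (median 16.53) in WT tumours on the log2 signal scale. Its ratio was above 0 on 6 arrays and below 0 on 6, with a fit of -0.14 ± 0.19 (SE, adjusted p = 0.724). A second, dimmer Fasn probe read lower, at -0.51 ± 0.17 (adjusted p = 0.108 over all probes).

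Scd1, the desaturase that makes oleate and palmitoleate from saturated chains, was the member with the largest change. Its log2 signal level was 12.67 to 15.90 (median 13.95) in KO tumours and 13.96 to 16.44 (median 15.18) in WT tumours. The levels of the groups overlapped, but on 10 of 12 arrays the KO RNA was lower than the WT RNA beside it, with ratios from -2.41 to 0.78 and a median of -1.18. The fitted ratio was -1.07 ± 0.29 (SE, 95% interval -1.70 to -0.43, adjusted p = 0.0475). All 4 pair ratios were below 0, at -1.38, -0.92, -1.06 and -0.78 in pairs A, B, C and D, and before the dye term pairs C and D averaged -0.65 and -1.18. Without that term in the fit the adjusted p was 0.0522. The arrays with KO above WT were array 5, at 0.78, and array 10, at 0.28. The call was kept without array 5, 10 or 11 (adjusted p down to 0.0166) and lost without any 1 of arrays 1, 2, 3, 4, 6, 7, 8, 9 or 12, at an adjusted p of up to 0.104 and ratios between -1.22 and -0.90 over all 12 omissions. Adjusted over all kept probes instead of 1 probe a gene, its p was 0.0523.

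The other desaturases did not pass. Scd2, its paralogue and the stearoyl-CoA desaturase of many tissues other than liver, had a ratio of -0.16 ± 0.090 (SE, adjusted p = 0.327), below 0 on 9 of 12 arrays. Its levels were tight, at 14.52 to 15.49 in KO tumours and 14.68 to 15.60 in WT tumours. Scd1 and Scd2 are close relatives in sequence, and whether each probe also reads the other's RNA was not tested. Fads1 and Fads2, which desaturate polyunsaturated chains, and their neighbour Fads3 had ratios of 0.14 ± 0.16, -0.07 ± 0.099 and -0.23 ± 0.18 (SE, adjusted p = 0.680, 0.768 and 0.528). The pair ratio of Fads3 lay on both sides of 0, at -1.10 in pair D and 0.41 in pair C.

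Elovl6, the elongase that turns palmitate into stearate and so feeds the stearoyl-CoA desaturases, was higher in KO tumours. Its level was 8.23 to 9.82 (median 9.38) in KO tumours and 6.95 to 10.47 (median 8.08) in WT tumours. The WT values spread more widely than the KO values and enclosed them, yet KO RNA was above WT RNA on 11 of 12 arrays, with ratios from -0.65 to 2.60 and a median of 1.1. The fit gave 0.98 ± 0.26 (SE, 95% interval 0.41 to 1.55, adjusted p = 0.0454), a 1.97-fold difference. Pair B had the highest pair ratio, 1.68 over 4 arrays, and pairs A, C and D had 0.44, 0.69 and 1.00. A test of whether the pairs differed gave an adjusted p of 0.613. Array 10 alone was below 0, at -0.65, beside 1.76 on array 9 of the same pair. Without array 10 or 11 the call stood (adjusted p down to 0.0185), and without any other single array it was lost, at up to 0.0984 and ratios of 0.85 to 1.14. It was also lost with the local background as deposited, where the ratio was 0.75 (adjusted p = 0.0829). The array carries 1 Elovl6 probe, at chr3:129477684-129477743 on build mm7.

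None of the other 5 tested elongases passed. Elovl7 had the next highest ratio, 0.41 ± 0.19 (SE, adjusted p = 0.239), above 0 on 9 arrays, and its second probe gave 0.11 ± 0.054 (adjusted p = 0.268). Elovl1, which elongates saturated chains to very long ones, had -0.32 ± 0.24 (SE, adjusted p = 0.479), with array 12 at -1.89 and 5 arrays above 0. Elovl2 and Elovl5, elongases of polyunsaturated chains, had 0.15 ± 0.14 and 0.13 ± 0.13 (SE, adjusted p = 0.600 and 0.641). Elovl4, known from retina and skin, was dim, above background on 7 arrays for KO RNA and 7 for WT RNA, at 0.04 ± 0.052 (SE, adjusted p = 0.693).

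The 5 long-chain acyl-CoA synthetases, which couple free fatty acids to coenzyme A, moved in opposite directions: Acsl4 rose, and Acsl1 and Acsl6 fell. Acsl1, the main isoform of fat, heart and liver, had levels of 11.35 to 11.99 (median 11.62) in KO tumours and 11.85 to 12.59 (median 12.11) in WT tumours. The highest KO values reached into the WT range. Its ratio was below 0 on 11 of 12 arrays, from -0.98 to 0.10 with a median of -0.54, and the fit gave -0.50 ± 0.11 (SE, 95% interval -0.74 to -0.27, adjusted p = 0.0204). All 3 Acsl1 probes were among the 5.71% that passed over all kept probes, at -0.50, -0.36 and -0.34 (adjusted p = 0.0224, 0.0263 and 0.0326). Acsl1 was the only member that passed with every single array left out, at -0.55 to -0.46 and adjusted p of 0.0129 to 0.0448. The call was lost when a whole pair other than B was left out, at -0.41 without A, -0.40 without C and -0.47 without D (adjusted p = 0.17, 0.0814 and 0.0701), and without the slide of C and D, at -0.37 (adjusted p = 0.165). The pair ratio was -0.69 for A, -0.95 for C and -0.52 for D, and it was -0.05 for B, where the 4 arrays lay between -0.22 and 0.10. The test between pairs gave an unadjusted p of 0.00086 and an adjusted p of 0.116. Acsl1 is the gene with the sterol letters at 1 of its starts, shown above.

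Acsl4, the X-linked isoform that prefers arachidonate, had levels of 15.36 to 16.47 (median 16.18) in KO tumours and 15.12 to 16.28 (median 15.61) in WT tumours. KO RNA was higher on 11 of 12 arrays, with ratios from -0.38 to 1.03 and a median of 0.52. The fitted ratio was 0.48 ± 0.12 (SE, 95% interval 0.22 to 0.73, adjusted p = 0.0332). The difference was seen in pairs A and B: the pair ratio was 0.74 in A and 0.71 in B, beside 0.02 in C and 0.07 in D (test between pairs, unadjusted p = 0.00952, adjusted p = 0.249). Before the dye term, the 2 arrays of pair C averaged 0.24 and those of pair D -0.15. Without the slide of pairs C and D the ratio was 0.72 (adjusted p = 0.00779), and on that slide alone it was 0.05 (adjusted p = 0.872). Between these pairs, slide and age cannot be told apart, and in pair C, which set KO males against WT females, neither can sex. The call was lost without any 1 of arrays 1, 2, 3, 7, 8 or 12, at up to 0.0684 and ratios of 0.43 to 0.55. A second, dimmer Acsl4 probe, annotated to another transcript of the gene, gave 0.14 ± 0.11 (adjusted p = 0.535), and the mean of both probes gave 0.31 (adjusted p = 0.0768).

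**Figure D2:**
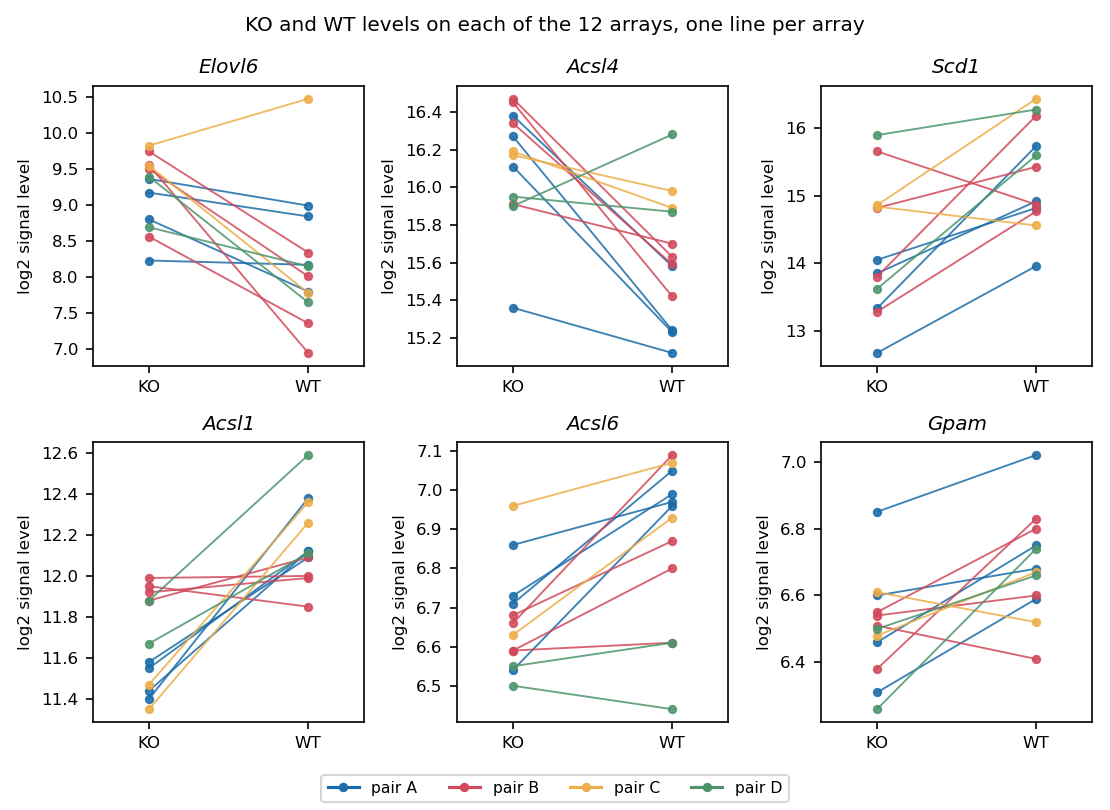
Log2 signal level of the 6 genes with an adjusted p under 0.05, in KO (left) and WT (right) RNA, with 1 line per array coloured by pair. Lines of Elovl6 and Acsl4 run down to WT on 11 of 12 arrays each, and lines of Acsl1 run up to WT on 11 of 12, with the 4 of pair B nearly level.

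Acsl6, known mainly from brain, was dim. Its brightest probe was above background on 9 arrays for KO RNA and 10 for WT RNA, with levels of 6.50 to 6.96 in KO tumours and 6.44 to 7.09 in WT tumours. The ratio was below 0 on 11 arrays, and the fit gave -0.20 ± 0.053 (SE, adjusted p = 0.0465). The size depended on the background correction: it was -0.14 (adjusted p = 0.103) with the local background as deposited, -0.43 (adjusted p = 0.0753) from the scanner's processed signals, and -0.31 (adjusted p = 0.039) with a normexp offset of 10. The other 3 Acsl6 probes gave -0.03, -0.06 and -0.13 and did not pass over all kept probes. The call stood without array 5 or 11 (adjusted p down to 0.0274) and was lost without any other single array, at up to 0.0904. Acsl3, found on lipid droplets, and Acsl5, of mitochondria and endoplasmic reticulum, did not pass, at 0.30 ± 0.10 and 0.08 ± 0.096 (SE, adjusted p = 0.101 and 0.710). Acsl3 was above 0 on 11 arrays; array 4, at -0.49, was the exception, and without it the ratio was 0.36 (adjusted p = 0.0256).

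Among the genes of triglyceride synthesis, Gpam, the mitochondrial acyltransferase of the first step, was lower in KO tumours by a small amount. Its single probe was dim, above background on 8 arrays for KO RNA and 9 for WT RNA, with levels of 6.26 to 6.85 in KO tumours and 6.41 to 7.02 in WT tumours. KO RNA was below WT RNA on 10 of 12 arrays, and the fit gave -0.19 ± 0.044 (SE, adjusted p = 0.0285). Its 4 fitted pair ratios lay between -0.21 and -0.17, but before the dye term the pairs averaged -0.21, -0.17, -0.04 and -0.32 in A, B, C and D, and without that term in the fit the call was lost (adjusted p = 0.0871). The size depended on the background: it was -0.12 (adjusted p = 0.215) with the local background as deposited, -0.52 (adjusted p = 0.0402) from the scanner's processed signals and -0.33 (adjusted p = 0.0221) with the offset of 10. Leaving out array 1, 2, 3, 7 or 9 ended the call, at up to 0.0603.

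Dgat1 and Dgat2, the unrelated enzymes that add the last acyl chain, did not pass. Dgat1 had -0.23 ± 0.10 (SE, adjusted p = 0.205), and both of its probes gave -0.23. Dgat2 was the most variable member, with an SD of 1.14 over the arrays. Its ratio ran from -2.26 on array 4 to 2.10 on array 6, and the fit was 0.44 ± 0.36 (SE, adjusted p = 0.535). Lpl, which frees fatty acids from lipoproteins at the capillary wall, had -0.42 ± 0.19 (SE, adjusted p = 0.210). Its 4 pair B arrays were all below 0, with a pair ratio of -1.04, beside -0.05 for A, -0.42 for C and -0.0043 for D. The second Lpl probe gave -0.11 ± 0.097 (adjusted p = 0.579 over all probes).

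The 7 cholesterol synthesis enzymes gave no call in KO over WT tumours. Limma called 0 of 7 by the probe used, against 7.14% of all genes, a share that for 7 genes is near 0 calls. At an unadjusted p under 0.05 there were 0 of 7, against 22.4% of all genes. The difference from these shares was not tested. Their fitted ratios lay between -0.11 and 0.17, with a median of 0.08. Hmgcs1, which makes HMG-CoA and carries the sterol letters and 4 CCAAT matches in its window, had 0.08 ± 0.19, and Idi1, which isomerises the isoprenoid unit, had 0.08 ± 0.17 (SE, adjusted p = 0.864 and 0.837). Fdps and Fdft1, which join isoprenoids up to squalene, had -0.11 ± 0.12 and 0.17 ± 0.12 (SE, adjusted p = 0.647 and 0.436). Sqle, the epoxidase, Lss, which closes the sterol rings, and Dhcr7, of the last step, had 0.10 ± 0.22, 0.08 ± 0.13 and -0.03 ± 0.11 (SE, adjusted p = 0.850, 0.807 and 0.930). Dhcr7 was measured on 11 arrays, since 1 outlying spot was left out. The 95% intervals, each for 1 probe and not adjusted for the number of genes, were widest for Sqle, from -0.39 to 0.58. The narrowest, that of Dhcr7, reached from -0.28 to 0.23. Other probes of these genes were not always alike. The other Hmgcs1 probes gave 0.26 and 0.11 (adjusted p = 0.360 and 0.175 over all probes). The other Lss probes gave -0.14 and -0.04 (adjusted p = 0.565 and 0.800 over all probes). Both Idi1 probes are placed on chromosome 2 on build mm7, whereas the Idi1 promoter window lies on chromosome 13 on build GRCm38.p6. Whether these probes read RNA from another locus was not tested.

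The median ratio of the 7 enzymes was below 0 on 5 arrays and above 0 on 7. It was lowest on array 4 and highest on array 5, and near 0 on others, such as 0.03 on array 7 and -0.03 on array 8. On array 4 all 7 enzymes were below 0, with a median of -0.78; Hmgcs1 was at -1.50, Sqle at -1.22 and Idi1 at -1.03. On array 5, 6 of 7 were above 0, with a median of 0.59; Sqle was at 1.71 and Idi1 at 1.70. The all-gene medians of these arrays were -0.01 and 0.02. The median of the 7 pair ratios was -0.16 in A, 0.17 in B, -0.31 in C and 0.19 in D. Before the dye term, the medians on the single arrays were -0.15 and -0.14 in pair C and -0.21 and 0.09 in pair D, a smaller gap than with the term. The test between pairs had an unadjusted p under 0.05 for Sqle, Idi1 and Fdft1 (0.0262, 0.0291 and 0.0280), and for Acacb, Acsl1 and Acsl4 among the fatty acid genes, which is 6 of 36 members (16.7%), against 12.2% of all genes. No member passed it after adjustment, where the lowest p was 0.116 for Acsl1, and 0.342% of all genes did.

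**Figure D3:**
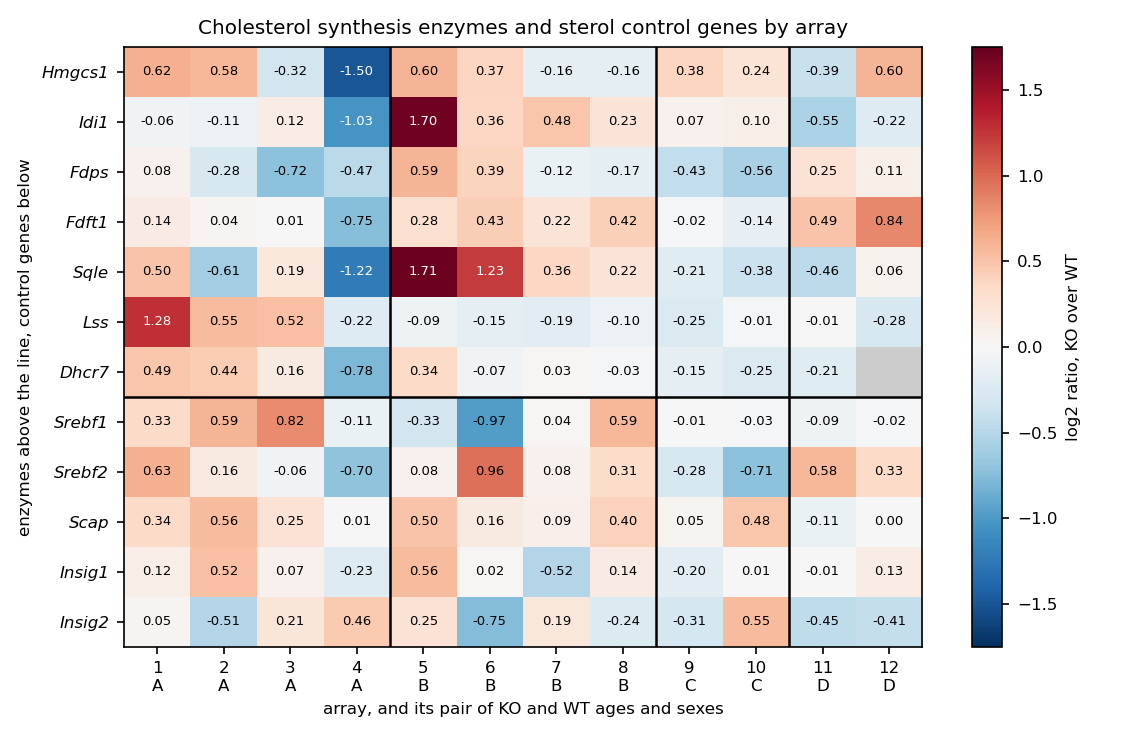
Log2 ratio of KO over WT for the 7 cholesterol synthesis enzymes (top rows) and the 5 sterol control genes (bottom rows) on each array, with arrays in columns under their pair; red is higher in KO and blue lower, and grey marks the Dhcr7 spot left out. The column of array 4 is blue for all 7 enzymes and that of array 5 is red for 6 of 7.

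The genes that control sterol synthesis did not pass either. Scap, the escort that carries SREBP out of the endoplasmic reticulum, came closest, above 0 on 11 of 12 arrays at 0.22 ± 0.071 (SE, adjusted p = 0.0838). Srebf1, which codes for the SREBP of fatty acid genes, had 0.06 ± 0.14, and Srebf2, the SREBP of cholesterol genes, had 0.11 ± 0.15 (SE, adjusted p = 0.858 and 0.736). The RNA level of either says nothing of how much of the protein is processed. Insig1 and Insig2, which hold Scap back when sterols are plentiful, had 0.05 ± 0.095 and -0.08 ± 0.11 (SE, adjusted p = 0.833 and 0.718). Of the 22 members with several kept probes, 16 had all of their probes on one side of 0, and Srebf2 was among those that did not, with 4 probes between -0.07 and 0.11.

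Further genes of these pathways gave few calls. Of 14 other cholesterol synthesis genes, 0 passed and 4 had an unadjusted p under 0.05, and their median was -0.09. Of 17 other targets of SREBP and the liver X receptors, 1 rose: Pnpla3, a lipase-like droplet protein, at 0.44 ± 0.081 (SE, adjusted p = 0.00979), above 0 on 12 of 12 arrays. Its probe was above background on 8 arrays for KO RNA and on only 4 for WT RNA, so it was kept through the KO RNA alone, and its ratio was mostly taken against WT signal not well above background. Of 23 other genes of glycerolipid and phospholipid synthesis, 1 fell, Agpat1, the acyltransferase after Gpam's step, at -0.35 ± 0.075 (SE, adjusted p = 0.0190), and the median was -0.19. Of 25 genes of fatty acid uptake and lipid droplets, 1 fell, Mgll, the monoglyceride lipase, at -0.76 ± 0.10 (SE, adjusted p = 0.00216), below 0 on 12 of 12 arrays. Of 19 fatty acid oxidation genes, 0 passed and 4 had an unadjusted p under 0.05. Over all genes, 7.14% passed.

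Markers of cell types were read from the same fit, and the endothelial list was the only one in which every marker passed. All 12 endothelial markers fell, with a median of -0.75. Their mean log2 level was 9.89 to 10.34 in KO tumours and 10.69 to 11.39 in WT tumours, which do not overlap, and all 12 were above background on every array. Lpl acts on that cell layer, and the part of endothelial RNA in its ratio, or in those of Scd1, Acsl1, Acsl6 and Gpam, was not tested. Of the 10 alveolar type 2 markers, all were above background on every array, and 2 fell, Etv5 at -0.59 ± 0.14 and Lamp3 at -0.78 ± 0.19 (SE, adjusted p = 0.0336 and 0.0391). The list did not move as a whole: 7 of the 10 had a fitted ratio below 0. At an unadjusted p under 0.05 in limma's test, 1 was higher in KO tumours and 2 were lower. The median of the 10 markers, -0.12, turned to 0.01 under median centring. Their mean level was 13.91 to 15.39 in KO tumours and 14.66 to 15.67 in WT tumours. Of 8 adipocyte markers, 0 passed, 7 had a fitted ratio below 0, and 2 were lower at an unadjusted p under 0.05 in limma's test. Their mean level was 7.64 to 8.32 in KO tumours and 7.86 to 8.37 in WT tumours. Of the 8, 4 were above background on every array, whereas Adipoq and Lep were so on 8 arrays for KO RNA and 8 for WT RNA. Of 13 macrophage markers, 1 fell, Itgax at -0.54 ± 0.15 (SE, adjusted p = 0.0496), and the mean level was 11.92 to 12.99 in KO tumours and 12.17 to 12.95 in WT tumours. Of 12 proliferation genes, 1 rose, Tyms at 0.49 ± 0.048 (SE, adjusted p = 0.000405), which has a near copy, Tyms-ps, that its probe may also read, and the list's median was above 0 on 10 of 12 arrays. Over all genes, 3.37% passed as higher and 3.77% as lower. The part of these markers in the members' ratios was not tested.

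**Figure D4:**
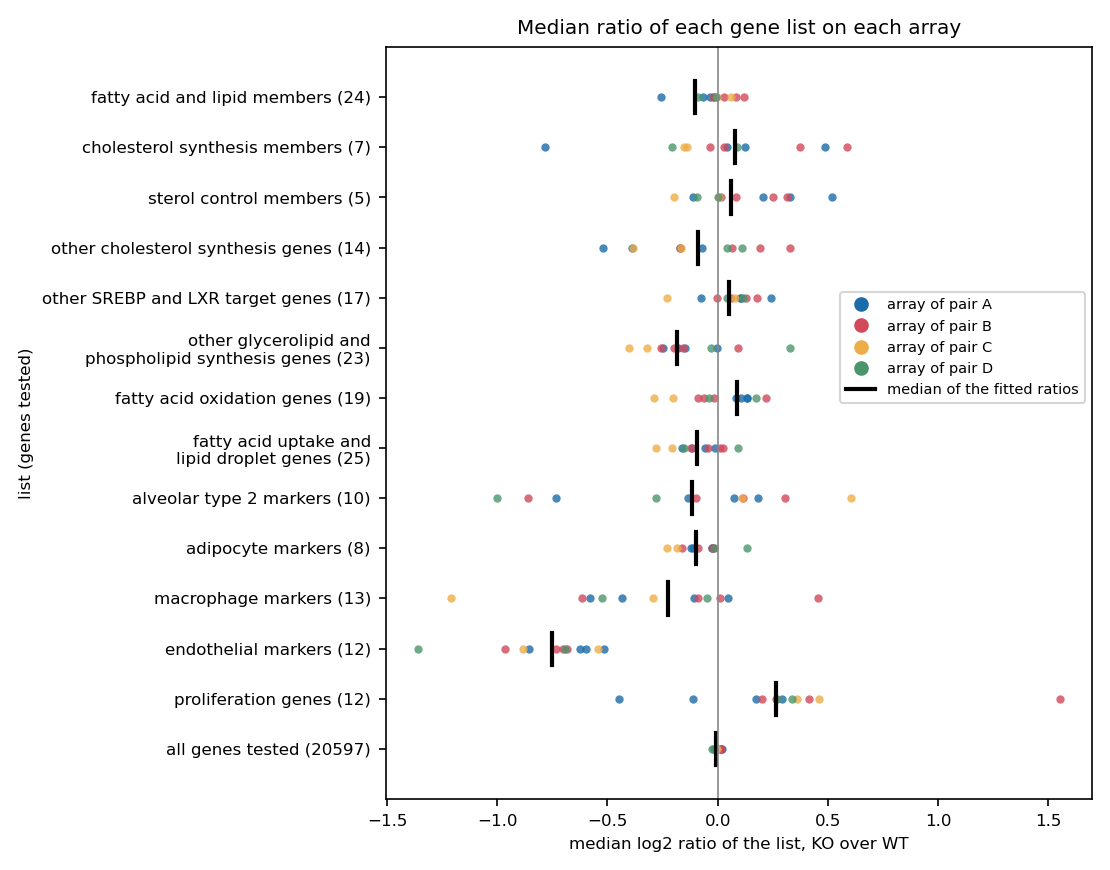
Median log2 ratio of KO over WT of each gene list (rows, with the number of genes tested) on each array, as points coloured by pair, and the median of the fitted ratios as a bar. The endothelial markers lie below 0 on all 12 arrays, between -1.36 and -0.51, whereas the medians of the fatty acid and cholesterol members lie on both sides of 0.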

How the data were processed

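Total RNA of the tumours was labelled with Cy3 or Cy5 and hybridised on 12 two-colour Agilent arrays, scanned with Feature Extraction 10.1.1.1, per the file headers. The spot and local background intensities used here are those the authors deposited; the deposited value table of log2 ratios, for which the submitters' processing notes name limma, was an alternative. The scanner's above-background and outlier flags are the deposited 0 or 1 marks (other values, neither signal nor ratio). Outlying local backgrounds were replaced by the array median. Intensities were corrected by normexp (offset 50) and loess, with limma 3.58.1 in R 4.3.3. Control and outlier spots were left out, ratios were turned to KO over WT, and spots of a probe were averaged. Signal levels were scaled between arrays by Aquantile. A fit with a dye term and the pair as a random block (correlation 0.0789, estimated on the turned ratios) covered the brightest kept probe of each of 20597 genes. The between-pair F test took arrays as independent. Pairs C and D hold 1 dye orientation each, and the precision of each fitted ratio is limited by the number of arrays.

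Genes were named through RefSeq accessions (22951 probes) or the array's own name (11758), and 6465 probes stayed unnamed. The 37 genes and the other lists were chosen with earlier results of these data known, so they support nothing beyond the values given. The naming rule was: every member, Dnmt3a, and from each other list the genes past the threshold. The fit was tested on simulated data, where it found most of the changed genes, but it also called unchanged genes more often than the threshold allows and estimated a lower pair correlation than was set, so adjusted p-values close to the threshold may be too small. Alternatives were other backgrounds, normalizations, probe filters, dye and block terms, and arrays, pairs or slides left out. No probe sequences were used here.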

Additional observations from a re-analysis of the deposited data

Results flagged for a closer look

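Of 72 groups of 6 arrays with the same dye orientation (36 genes in 2 orientations), 6 held an array far from the others by Dixon's test, and chance flags about 1 in 20 groups. Array 4 was flagged for 2 genes. It had the lowest ratio of Elovl7 with KO in Cy3, at -0.93, where the next lowest was 0.56. It also had the lowest ratio of Acsl3, at -0.49, with the next lowest at 0.24 among the arrays with KO in Cy3. This is the array on which all 7 cholesterol enzymes were below 0. Array 12 had an Elovl1 ratio of -1.89, with the next lowest at -0.13 among the arrays with KO in Cy3. Arrays 1 and 9, with KO in Cy5, had -1.26 and -1.18, so array 12 was not alone in a low ratio. Array 10 had an Elovl2 ratio of -0.86, where the next lowest among the arrays with KO in Cy5 was 0.10. Array 2 had an Lss ratio of 0.55 among the arrays with KO in Cy3, with the next highest at -0.01. Arrays 1 and 3 of the same pair, with KO in Cy5, had 1.28 and 0.52, so array 2 did not stand apart from those. Array 5 had an Idi1 ratio of 1.70, where the next highest was 0.48. Of the 6 genes, Acsl3 had an adjusted p under 0.05 with 1 array left out: it passed without array 4 (0.36, adjusted p = 0.0256).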

How the results depend on the processing

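Of 36 members, 6 passed in the reported fit, with 1471 of all genes. None of the 6 changed sign under any alternative run (up to 33 each). Left as deposited, the local background gave 4 members and 1283 genes, and split the genes into 766 higher and 517 lower, against 694 and 777. Median centring in place of loess gave 0 members and 359 genes, and the mean of each pair as 1 value gave 0 and 48. With the 12 arrays as independent 8 members and 2212 genes passed. Leaving out pair A gave 0 members and 400 genes, pair B 1 (Acsl1) and 917, pair C 2 (Elovl6 and Acsl4) and 839, and pair D 3 (Acsl4, Acsl6 and Gpam) and 974. Without the dye term 4 members passed, all but Scd1 and Gpam. Within slides 1, 2 and 3 alone, 0 members passed in each, with 0, 1 and 0 genes. Without slide 3, an alternative chosen after seeing the data, 2 members (Acsl4 and Acsl6) and 868 genes passed. With 1 array left out, 1 to 6 members and 778 to 1818 genes passed. The fewest members, 1 each, came without array 1, 2, 3 or 7, and the fewest genes without array 3. Without array 7 or 12, 926 or 799 genes passed. The block correlation estimated on red over green ratios gave 8 members and 2184 genes. The cause of these changes was not tested; fewer arrays leave fewer degrees of freedom. The 7 cholesterol enzymes gave 0 calls under every alternative run, which for so few genes does not set them apart from all genes. Between pairs, 1 member passed under median centring and 70 genes in the reported test, against 16 with the local background as deposited and 166 under median centring. Among the 6 called members, the probes of Acsl6 and Gpam have the least signal over background, and their calls did not hold in the authors' deposited ratios (adjusted p = 0.0505 and 0.0578). Each ratio sets KO RNA against the WT RNA on the same array, so every fit was paired by array.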
